A study of Mus musculus with 3 samples.

Results

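This report follows 8 genes by which glia take up and recycle glutamate and GABA, answer to glutamate and couple to each other: Slc1a2, Slc1a3, Glul, Slc6a11, Slc7a10, Gria2, Gja1 and Gjb6. They were picked by symbol from the 27998 genes listed in the files, by a rule that uses no measured value but was written with earlier results of these data known. The cells came from the subventricular zone (SVZ), the germinal layer of the lateral ventricle wall, of adult mice, dissociated with papain, sorted by fluorescence and captured with 10x Genomics Single Cell 3' v2 chemistry. All mice carried aSMACreERT2::Rosa26-tdTomato, in which the promoter of alpha smooth muscle actin drives an inducible Cre recombinase and tdTomato stays on in cells where Cre has acted, and Sox2-GFP from the B6;129S-Sox2tm2Hoch/J line, on a background of C57/Bl6(3/4) crossed with 129S1SvlmJ(1/4). Sorting for both colours gave the tdTomato-positive library (1200 sorted cells), and sorting for GFP without tdTomato gave tdTomato-negative libraries 1 and 2 (1200 and 6000 sorted cells). All 3 libraries thus share the GFP gate. The labels speak of 5 adult mice without saying which animals went into which library. In comparisons of the sorted libraries the spread behind the p-values is that between libraries. In comparisons of cell classes library was a block, so the spread is how far class differences vary between libraries. Either spread may be technical. In the main fits the spread was pooled over the genes tested. Their p-values, SEs and 95% intervals of log2 differences thus do not rest on each gene's own spread.

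Glutamate released by neurons is cleared mainly by astrocytes, through the transporters GLT-1 (Slc1a2) and GLAST (Slc1a3), and glutamine synthetase (Glul) turns it into glutamine. GABA is taken up by glia partly through GAT-3 (Slc6a11). Asc-1 (Slc7a10) exchanges small neutral amino acids, D-serine and glycine among them. GluA2 (Gria2) is the AMPA receptor subunit that, in its edited form, keeps the channel closed to calcium. Connexin 43 (Gja1) and connexin 30 (Gjb6) form the gap junctions that join astrocytes into a network, and in the SVZ the astrocyte lineage also includes the neural stem cells, which share many of these transcripts with ordinary astrocytes.

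After filtering, the tdTomato-positive library kept 252 cells and tdTomato-negative libraries 1 and 2 kept 256 and 1121, with a median of 2535, 2640 and 2401 UMIs (counted transcript molecules) per cell. The tdTomato-positive library stood apart: 70.2% of its cells were ependymal-like, against 4.69% and 4.01% of the tdTomato-negative ones, its median mitochondrial share was 8.27% against 3.22% and 3.38%, and it alone held endothelial-like (20 cells), microglia-like (14) and mural-like (8) cells. At most 2 kept barcodes were shared between any pair of libraries. Clusters were built without the 8 genes and without the pathway lists used below, and named from marker lists. The astrocyte-like class, of 278 cells (16, 44 and 218 in the order above), joined a cluster of 214 cells with a cluster of 64 cells that had the highest Gfap level (1736 CPM, against 98.8 CPM in the other cluster). Levels are CPM, UMIs summed over the cells of a class in a library and scaled to the same total, and are given per library where it held at least 10 cells of the class. Levels were tested only within a gene, and values of different genes set side by side are a description. Cluster 3 (250 cells, led by Meg3, Runx1t1 and Ubash3b), cluster 4 (212 cells, led by Prokr2, Pbx3 and Meg3) and cluster 9 (115 cells, led by Ung, Mcm3 and Mcm2) met no naming rule and are called by number. All 18 astrocyte markers were detected in the astrocyte-like cells of every library, with summed levels of 24043 to 27500 CPM; these markers named the class and were among the clustering genes, so this is no separate check of the name.

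The start regions of 4 members are shown because genes that were high in the same cell class differed widely in sequence there. They are RefSeq windows on GRCm38.p6 from 250 bases before to 50 after the annotated start, on the strand of the gene, with capitals marking an E box (CAGCTG) or a GC box (GGGCGG, or CCGCCC for the other strand).
Slc1a2, chr2:102706188-102706487, plus strand: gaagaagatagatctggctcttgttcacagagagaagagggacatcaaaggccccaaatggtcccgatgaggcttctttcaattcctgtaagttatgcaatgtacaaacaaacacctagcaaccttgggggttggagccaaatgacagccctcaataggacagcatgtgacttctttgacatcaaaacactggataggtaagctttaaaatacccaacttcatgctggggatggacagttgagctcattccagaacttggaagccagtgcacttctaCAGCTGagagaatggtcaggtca
Slc1a3, chr15:8710758-8711057, minus strand: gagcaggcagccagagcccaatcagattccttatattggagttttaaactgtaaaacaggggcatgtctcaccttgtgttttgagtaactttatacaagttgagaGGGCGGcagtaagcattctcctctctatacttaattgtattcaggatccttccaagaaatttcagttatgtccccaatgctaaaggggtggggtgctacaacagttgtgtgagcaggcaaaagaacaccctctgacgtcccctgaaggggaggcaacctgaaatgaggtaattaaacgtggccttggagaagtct
Slc6a11, chr6:114130991-114131290, plus strand: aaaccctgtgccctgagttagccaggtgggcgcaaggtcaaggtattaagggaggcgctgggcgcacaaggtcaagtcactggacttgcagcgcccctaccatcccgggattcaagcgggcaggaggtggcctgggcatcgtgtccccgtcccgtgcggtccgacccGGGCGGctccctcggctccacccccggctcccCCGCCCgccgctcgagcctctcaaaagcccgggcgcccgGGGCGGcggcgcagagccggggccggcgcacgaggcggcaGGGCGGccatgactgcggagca
Slc7a10, chr7:35186135-35186434, plus strand: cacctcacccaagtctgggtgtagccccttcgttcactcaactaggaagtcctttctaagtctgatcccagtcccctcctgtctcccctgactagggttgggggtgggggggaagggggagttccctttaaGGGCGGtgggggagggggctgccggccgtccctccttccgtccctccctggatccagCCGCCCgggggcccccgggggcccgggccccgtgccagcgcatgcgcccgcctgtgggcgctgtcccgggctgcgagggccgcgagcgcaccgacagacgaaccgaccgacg
The Slc1a2 window held 1 CG dinucleotide and the Slc1a3 window 3, against 32 in that of Slc6a11 and 24 in that of Slc7a10, and a median of 7 over 32851 RefSeq windows of the same length. The other windows held 17 (Glul), 26 (Gria2), 8 (Gja1) and 6 (Gjb6). A GC box, found in 35.66% of all windows on either strand, occurred in those of Slc1a3 (1), Glul (1), Slc6a11 (4) and Slc7a10 (2). An E box, found in 16.3% of all windows, occurred in those of Slc1a2 (1) and Glul (1). The letters TTGGCA (the core of an NFI site, in 14.12% of all windows) and AACAAT (a SOX core, in 10.72%), also searched on both strands, were in none of the 8. None of the motifs contains another, and a match is only a match of letters. In Slc1a2 the RefSeq start used here lies inside the gene as GENCODE M21 draws it (chromosome 2, 102658659 to 102790784), downstream of its first annotated base. The CG and motif counts given for Slc1a2 describe this inner start and not the region at that first base.

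The plot of the 8 genes by class shows the main pattern. In every library, 6 of the 8 genes (all but Glul and Gria2) had their highest level in astrocyte-like cells among the classes with at least 10 cells.

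**Figure D1:**
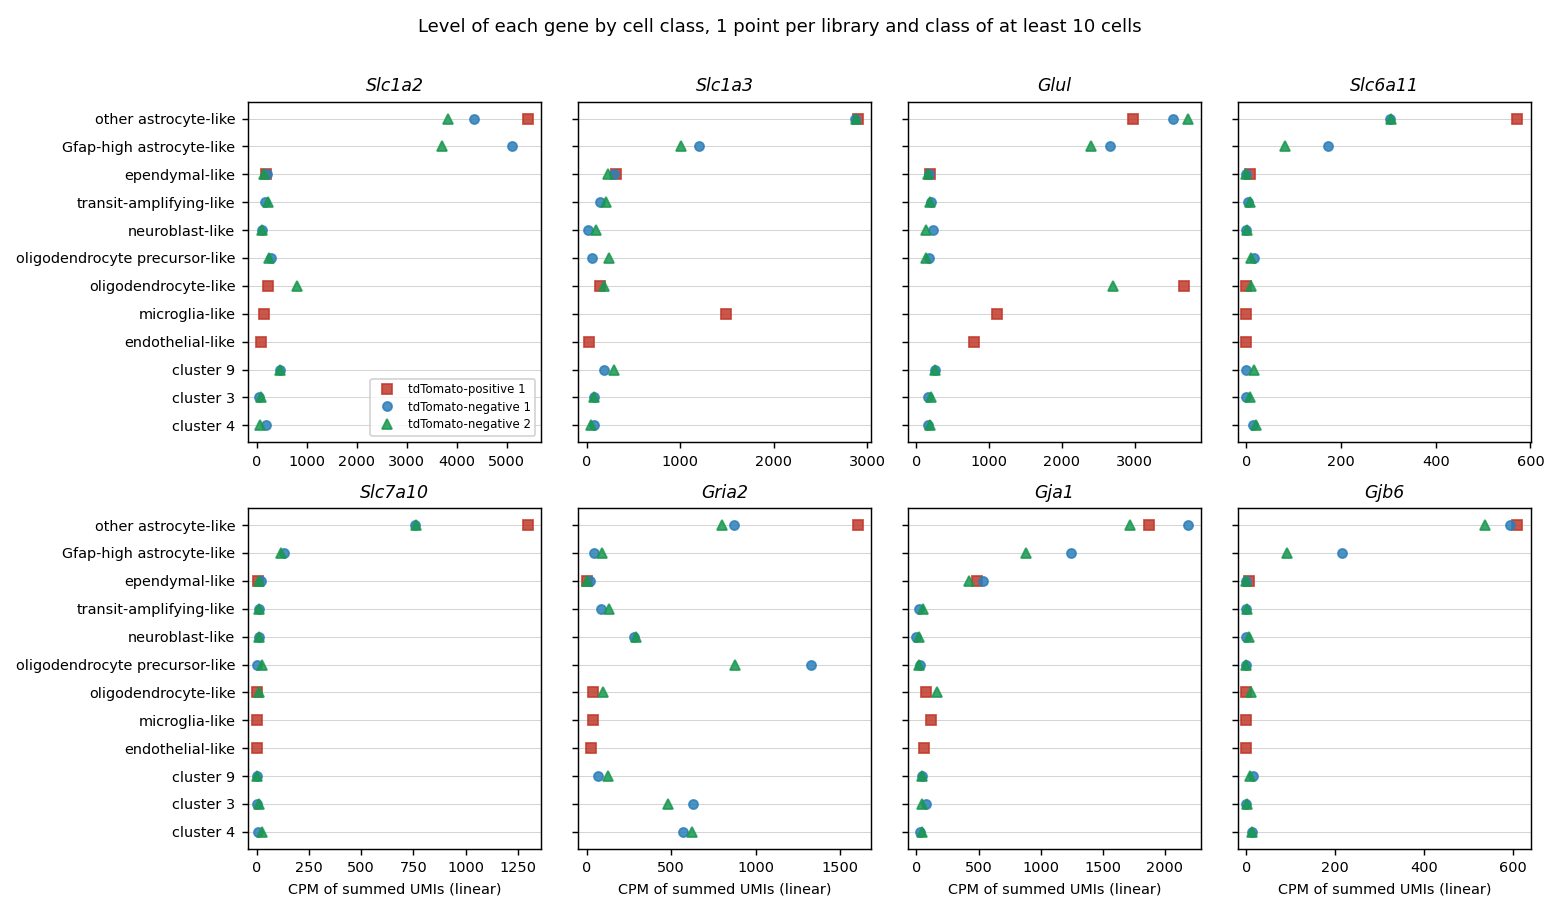
Level of each gene (CPM of summed UMIs, linear axis that differs between panels) by cell class. Each point is 1 library and class of at least 10 cells, with square, circle and triangle for the tdTomato-positive and the tdTomato-negative libraries 1 and 2. Gria2 is also high in oligodendrocyte precursor-like cells (877 and 1325 CPM), Glul in oligodendrocyte-like cells, and Gja1 in ependymal-like cells.

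Slc1a2 is the main glutamate transporter of astrocytes. In astrocyte-like cells of the tdTomato-positive library it reached 4884 CPM, against 4535 and 3809 CPM in tdTomato-negative libraries 1 and 2. In ependymal-like cells it was 195, 200.2 and 144 CPM in the same order, in neuroblast-like cells 101 and 114 CPM, and in transit-amplifying-like cells, the dividing progenitors, 175 and 227 CPM. No class outside the astrocyte-like one came near it in any library, and the next highest were cluster 9 (467 and 465 CPM) and oligodendrocyte-like cells (223 CPM in the tdTomato-positive library, 805 CPM in tdTomato-negative library 2). The 805 CPM came from 84 UMIs in 9 of 20 cells, and after thinning to 1000 UMIs 3 of the 20 held 1, so it was carried by few cells. The fit put Slc1a2 4.56 ± 0.20 (log2, ± SE) higher in astrocyte-like than in ependymal-like cells, 4.48 ± 0.21 higher than in transit-amplifying-like cells and 5.35 ± 0.25 higher than in neuroblast-like cells.

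Slc1a3 (chromosome 15, 8634124 to 8710764, minus strand) encodes GLAST, the glutamate transporter also known from radial glia and neural stem cells. Astrocyte-like cells held 2519.8, 2466 and 2499.5 CPM of it in the same order, the smallest range between libraries of any member. Ependymal-like cells held 318, 289 and 224 CPM, transit-amplifying-like cells 142 and 204 CPM, and neuroblast-like cells 20.2 and 105 CPM. These ranges do not overlap that of the astrocyte-like cells. The differences were 3.22 ± 0.20, 3.88 ± 0.21 and 4.96 ± 0.25 (log2) against ependymal-like, transit-amplifying-like and neuroblast-like cells. Slc1a3 was also at 1492 CPM (exact Poisson 95% interval 1061 to 2040) in the 14 microglia-like cells, of which 85.7% held a UMI of it. In those cells 8 of 18 astrocyte markers were detected, at a summed 536 CPM, with Aqp4, Gfap and Agt at 0, and Slc1a2 was at 153 CPM. These cells came from 1 library, so this level has no replicate.

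Glul (chromosome 1, 153899944 to 153909723, plus strand), whose enzyme uses ammonia to amidate glutamate, was the member shared with oligodendrocytes. It was at 3080, 3313 and 3459 CPM in astrocyte-like cells and in oligodendrocyte-like cells at 3673 CPM in tdTomato-positive cells and 2701 CPM in tdTomato-negative library 2. The ranges of these classes overlap. In ependymal-like cells it stood at 180.2, 178 and 155 CPM, and in neuroblast-like cells at 223 and 136 CPM. Endothelial-like cells (787 CPM, interval 518 to 1145) and microglia-like cells (1109 CPM, interval 743 to 1593) lay in between, in the tdTomato-positive library alone. In the endothelial-like cells 10 of 18 astrocyte markers were detected, at a summed 2593 CPM, and in the oligodendrocyte-like cells 10 and 15 of 18, at 1261 and 1542 CPM; their part in the Glul levels was not tested. Glul was 4.25 ± 0.21, 4.24 ± 0.21 and 4.44 ± 0.23 higher (log2) in astrocyte-like than in ependymal-like, transit-amplifying-like and neuroblast-like cells.

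Slc6a11 (chromosome 6, 114131241 to 114249952, plus strand), the GABA transporter GAT-3, was found almost only in astrocyte-like cells: 560 CPM (18 UMIs), 272 CPM (26 UMIs) and 260.4 CPM (140 UMIs). Ependymal-like cells held 4 UMIs of it in all, every one in the tdTomato-positive library, transit-amplifying-like cells 7 and neuroblast-like cells 1. It was 6.39 ± 0.56 higher (log2) than in ependymal-like and 5.38 ± 0.44 higher than in transit-amplifying-like cells. Against neuroblast-like cells, with their 1 UMI, the log2 ratio of pooled CPM in the tdTomato-negative libraries was 7.40 with a 95% counting interval of 4.90 to 12.7.

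Slc7a10 (chromosome 7, 35186385 to 35201114, plus strand), the neutral amino acid exchanger, stood at 1058, 606 and 632 CPM in astrocyte-like cells. It did not pass 26.6 CPM in any other named class and library. Its differences were 6.69 ± 0.41, 5.92 ± 0.34 and 6.12 ± 0.40 (log2) against ependymal-like, transit-amplifying-like and neuroblast-like cells. Gjb6 (chromosome 14, 57123303 to 57133611, minus strand), connexin 30, behaved alike in counts: 529, 502 and 446 CPM in astrocyte-like cells, 4 UMIs over all ependymal-like cells, 1 over all transit-amplifying-like cells and 3 over all neuroblast-like cells. In the 69 oligodendrocyte precursor-like cells no UMI of Gjb6 was counted, which allows up to 11.9 CPM at 3 counts. Its log2 ratio of pooled CPM was 8.96 (95% counting interval 6.47 to 14.3) against transit-amplifying-like cells and 6.61 (5.05 to 8.89) against neuroblast-like cells, and the fit gave 6.54 ± 0.49 against ependymal-like cells.

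Gja1 (chromosome 10, 56377330 to 56402513, plus strand), connexin 43, joined ependymal-like to astrocyte-like cells. Astrocyte-like cells held 1804, 1954 and 1547 CPM and ependymal-like cells 491, 534 and 420.0 CPM, which is a lower level that does not overlap the first but lies far above transit-amplifying-like cells (16.7 and 50.4 CPM) and neuroblast-like cells (0 and 18.4 CPM). Of the 234 ependymal-like cells (median 3633 UMIs), 72.2% held a UMI of Gja1, against 4.0% of the 250 neuroblast-like cells (median 2395 UMIs). After thinning every cell to 1000 UMIs the shares were 38.9% and 1.6%. Astrocyte-like cells exceeded ependymal-like cells by 1.90 ± 0.19 (log2), the smallest difference of the 8 genes in that comparison, and exceeded transit-amplifying-like and neuroblast-like cells by 5.45 ± 0.26 and 6.80 ± 0.33. The connexins thus differed in the ependymal-like cells, where Gja1 gave 386 UMIs and Gjb6 4, against 1077 and 305 in astrocyte-like cells; this difference between the genes was not tested.

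Gria2 (chromosome 3, 80681450 to 80802835, minus strand), the AMPA receptor subunit, was spread over more classes than the other members. It was at 1307, 669 and 656.5 CPM in astrocyte-like cells, 1325 and 877 CPM in oligodendrocyte precursor-like cells, 283 and 292 CPM in neuroblast-like cells, 630.3 and 482 CPM in cluster 3, and 569.6 and 626 CPM in cluster 4. In both libraries that held both classes the oligodendrocyte precursor-like cells were above the astrocyte-like ones, a difference that was not tested, and the levels of clusters 3 and 4 overlap each other. In ependymal-like cells only 4 UMIs were counted in 234 cells, and after thinning to 1000 UMIs none of 216 cells held 1. The fitted differences were 7.48 ± 0.42 against ependymal-like, 2.66 ± 0.23 against transit-amplifying-like and 1.32 ± 0.23 against neuroblast-like cells (log2). The last was the smallest class difference of the 8 genes, and its edgeR adjusted p of 3.68e-08 became 0.0522 without tdTomato-negative library 1. The oligodendrocyte precursor-like class also held oligodendrocyte markers at 22579 and 15643 CPM (10 and 12 of 13 detected), beside precursor markers at 8317 and 8299.8 CPM, so it spans more than precursors.

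All 8 genes were therefore called higher in astrocyte-like cells in each of these comparisons, by the quasi-likelihood test of edgeR with Benjamini-Hochberg adjustment at 0.05. Among all genes tested, 35.1% were called against ependymal-like cells (15.4% higher, 19.7% lower), 50.9% against transit-amplifying-like cells (26% higher, 25% lower) and 44.7% against neuroblast-like cells (23.8% higher, 20.9% lower). The median log2 difference of the 8 genes was 5.47, 4.93 and 5.74 in that order, beside -0.03, 0.05 and 0.04 over all 2687 genes tested. Slc6a11, Slc7a10 and Gjb6 stayed under the filter on low counts (98.43 CPM in at least 1 sum) in every class but the astrocyte-like one. They could be tested only through the class where they were high, so the count and the median of the 8 genes are a description and no support. The classes were clustered from other genes of the same cells, so these tests describe how far the 8 genes follow classes drawn without them and are not independent of the clustering.

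**Figure D2:**
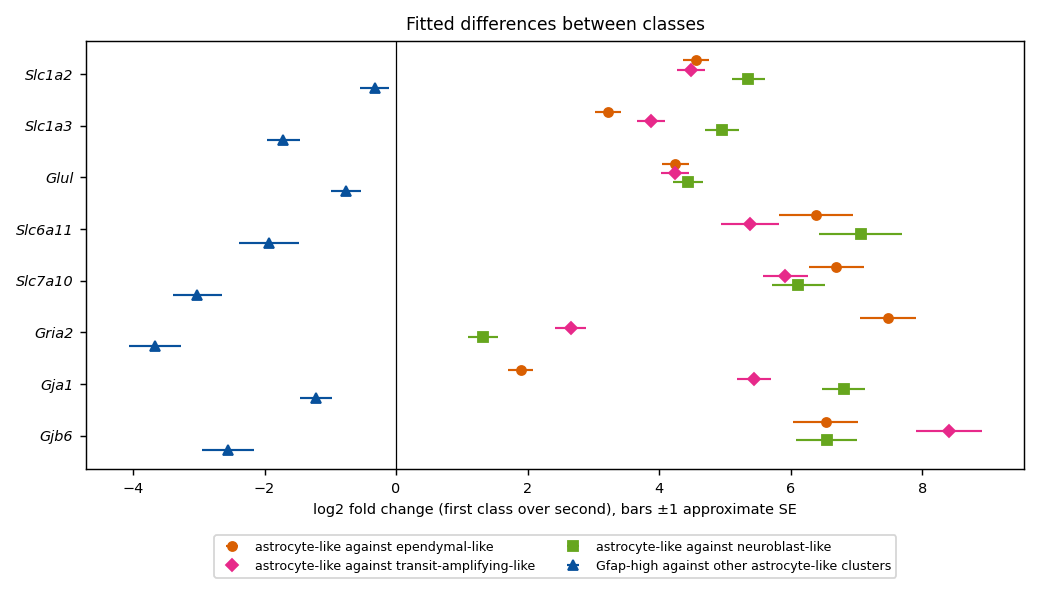
Fitted log2 difference of each gene in the class comparisons, with bars of 1 approximate SE. Circles, diamonds and squares (astrocyte-like cells over ependymal-like, transit-amplifying-like and neuroblast-like cells) all lie above 0, from 1.32 for Gria2 to 8.41 for Gjb6. Triangles (Gfap-high over other astrocyte-like cells) all lie below 0, from -0.32 for Slc1a2 to -3.67 for Gria2.

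Counted from the side of the gene, astrocyte-like cells were 278 of 1629 kept cells but held 93.6% of all UMIs of Gjb6, 90.8% of those of Slc7a10, 84.4% of Slc6a11, 72.3% of Slc1a2, 66.4% of Gja1, 65.8% of Slc1a3, 64.1% of Glul and 28.3% of Gria2. The largest other holder was the ependymal-like class for Gja1 (23.8%) and Slc1a3 (9.5%), the oligodendrocyte-like class for Glul (11.5%), cluster 9 for Slc1a2 (8.3%), and cluster 3 (16.1%) and the oligodendrocyte precursor-like class (15.5%) for Gria2. The pooled shares hide a difference between libraries. In the tdTomato-positive library astrocyte-like cells held 16.3% of the UMIs of Gja1, 25.8% of Slc1a3, 27.0% of Glul and 54.1% of Slc1a2, and ependymal-like cells 81.2%, 59.6%, 29.0% and 39.7%. In tdTomato-negative libraries 1 and 2 the astrocyte-like shares of these genes were 79.9% and 80.5%, 71.1% and 71.5%, 63.0% and 69.3%, and 71.4% and 74.4%. For Gria2 the order was reversed, with 85.7% in astrocyte-like cells of the tdTomato-positive library against 18.2% and 28.9%. These shares depend on how many cells of each class were sorted and on their depth, since transit-amplifying-like cells (median 7181 UMIs) were deeper than astrocyte-like cells (median 2352 UMIs).

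**Figure D3:**
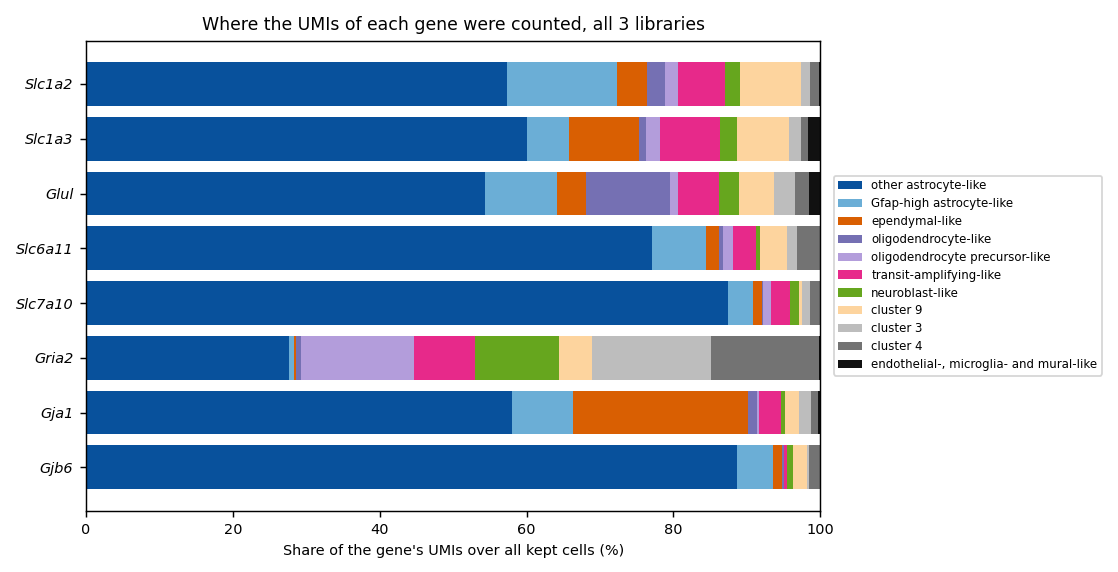
Share of each gene's UMIs (%, over all kept cells of the 3 libraries) by cell class. Dark and light blue are the other and the Gfap-high astrocyte-like cells, which hold 93.6% of Gjb6 but 28.3% of Gria2, and orange, the ependymal-like cells, holds 23.8% of Gja1.

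The 8 transcripts also met in the same cells. After thinning to 1000 UMIs, all 267 astrocyte-like cells deep enough held at least 1 of the 8 genes, with a median of 5 genes per cell, and 60.7% held 5 or more. No cell of any other class or cluster held 5 or more. Among astrocyte-like cells the UMI of a gene was found in 93.6% for Slc1a2, 89.9% for Glul, 83.5% for Slc1a3, 76.0% for Gja1, 42.7% for Gria2, 41.6% for Slc7a10, 35.2% for Gjb6 and 19.5% for Slc6a11 after thinning, and in 97.8%, 96.04%, 92.4%, 91.0%, 57.9%, 66.9%, 57.9% and 36.0% of the 278 cells before it. In neuroblast-like cells the thinned shares were 9.6%, 15.3%, 7.6%, 1.6%, 30.1%, 0.4%, 0.4% and 0.4% in the same order.

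Over the 16 sums of library and class, the levels of Slc6a11 and Gjb6 were the most alike of any 2 members (Pearson r 0.971 of log2(CPM + 10)), followed by Slc1a2 with Slc6a11 (0.959) and Slc7a10 with Gjb6 (0.958). Gria2 and Gja1 were the least alike (-0.02). The points share libraries and differ in depth, and the correlations are a description. Among 7194 genes, those most like Slc6a11 were AI464131 (0.984), Oaf (0.973) and Entpd2 (0.971), those most like Gjb6 were Lgi4 (0.979), Entpd2 (0.978) and the NMDA receptor gene Grin2c (0.971), and those most like Slc7a10 were Entpd2 (0.965), Lcat (0.963) and Ntsr2 (0.963). Slc1a2 was closest to Hsd11b1 (0.964) and AI464131 (0.962), Slc1a3 to Lfng (0.925) and Slc41a1 (0.910), and Gja1 to Slc9a3r1 (0.952) and Prdx6 (0.945). Glul was closest to Myo6 (0.906) and Daam2 (0.878), and Gria2 to Gsap (0.929) and Tmem63b (0.925). The 3 nearest genes of Slc1a3, Glul, Gria2 and Gja1 were not among those of any other member.

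The astrocyte-like class was then split, because astroglia of the SVZ include Gfap-rich and Gfap-poor cells. In the Gfap-high cluster 7 of the 8 genes were lower and Slc1a2 was not called. Slc1a2 stood at 5103 and 3713 CPM in the Gfap-high cells of tdTomato-negative libraries 1 and 2, and in the other astrocyte-like cells at 5420 CPM in tdTomato-positive cells and 4352 and 3833 CPM in tdTomato-negative libraries 1 and 2. Within library 1 the Gfap-high cells were the higher ones, and within library 2 the lower. The difference of -0.32 ± 0.22 (log2; adjusted p = 0.502) has a 95% interval of -0.75 to 0.11. For Slc1a3, the other glutamate transporter, the levels were 1201 and 1008 CPM in Gfap-high cells and 2901, 2874 and 2884 CPM in the others, with no overlap. The difference was -1.72 ± 0.25, with an interval of -2.20 to -1.23 (adjusted p = 1.44e-09).

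Gria2 fell furthest: 42.9 and 90.8 CPM (1 and 10 UMIs) in Gfap-high cells, against 1603, 870.5 and 802 CPM in the others, a difference of -3.67 ± 0.40 (adjusted p = 4.39e-17). After thinning, 8.2% of Gfap-high and 52.9% of other astrocyte-like cells held a UMI of it. Slc7a10 came next, at 129 and 118 CPM against 1298, 759.95 and 765 CPM (-3.02 ± 0.37, adjusted p = 2.89e-13). The connexins were both lower: Gjb6 at 214 and 90.8 CPM against 611, 594 and 538 CPM (-2.56 ± 0.39, adjusted p = 1.78e-08), and Gja1 at 1244 and 881 CPM against 1870.4, 2183 and 1719 CPM (-1.21 ± 0.24, adjusted p = 7.54e-05). Slc6a11 was at 172 and 81.7 CPM (4 and 9 UMIs) against 573, 304 and 306 CPM (-1.93 ± 0.45, adjusted p = 9.99e-04). Glul fell least, from 2977, 3523 and 3733 CPM to 2659 and 2397 CPM (-0.76 ± 0.22, adjusted p = 0.0187). For each of these genes the Gfap-high libraries lay below all libraries of the other cells. The share of all genes tested that were separated in this way was not counted.

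**Figure D4:**
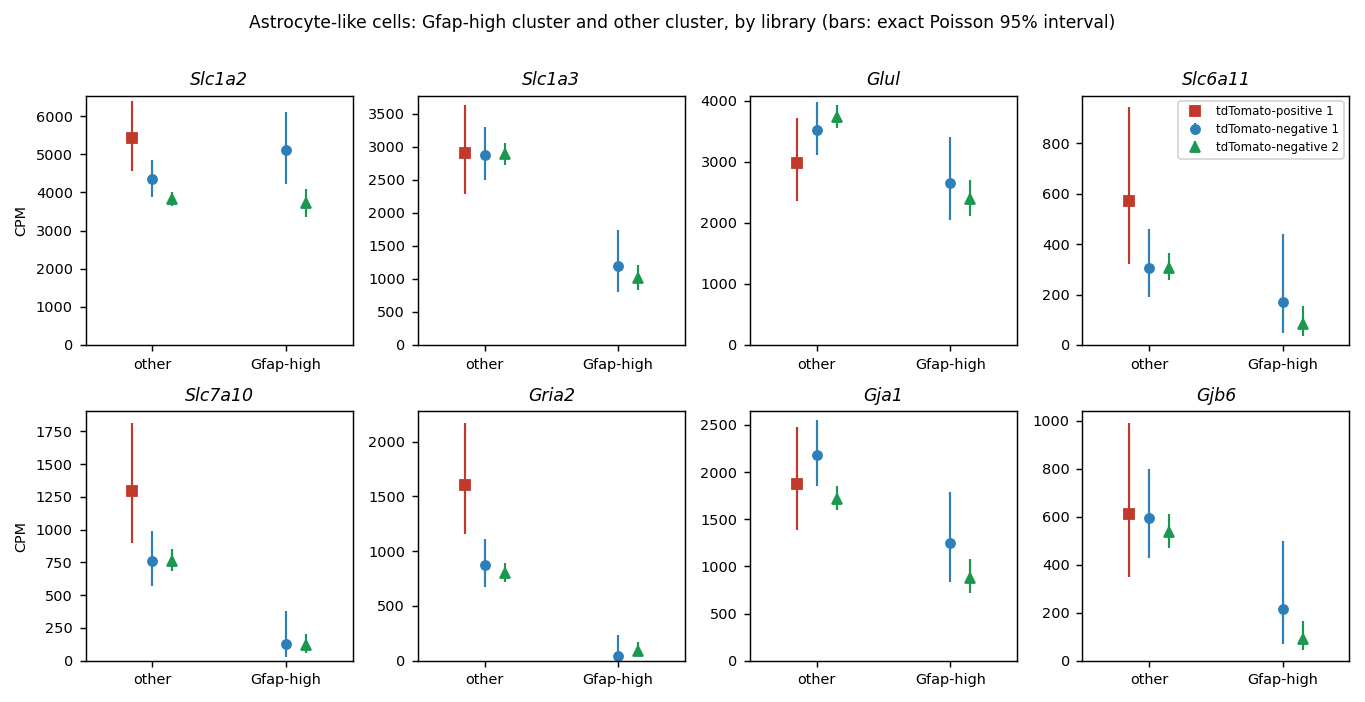
Level of each gene (CPM, linear axis from 0) in the other and the Gfap-high astrocyte-like cells, 1 point per library with its exact Poisson 95% interval, which covers counting error only. The groups overlap for Slc1a2 (3713 to 5420 CPM over all points) and do not overlap for the other genes. How many of all genes tested would not overlap was not counted.

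Of all 2799 genes tested in this split, 4.93% were called (1.96% higher, 2.97% lower) and the median log2 difference was -0.20, beside 7 of 8 and -1.82 for these genes. Only tdTomato-negative libraries 1 and 2 held at least 10 Gfap-high cells (12 and 50). Without library 1 or without library 2, 3 of the 8 genes were called, and Gria2 and Slc7a10 were among them both times. Glul lost its call in 7 of 11 alternatives. The summed level of neuron markers was 858 and 835 CPM in Gfap-high cells, against 267, 166 and 178 CPM in the others. In the Gfap-high cells only 3 of 12 markers were detected per library. They were Meg3, Syp and Scn2a1 in library 1 and Meg3, Syp and Syn1 in library 2. The rest were at 0 there, Rbfox3, Snap25 and Syt1 among them. In the others 4 to 9 of 12 were detected, with Snap25 above 0 in each library. The part of these markers in the result was not tested. Astrocyte markers summed to 21354 and 17958 CPM in Gfap-high cells and to 25611 to 28170 CPM in the others; Aldoc, a metabolic enzyme of astrocytes, was at 4038 against 4526 CPM over all cells of each. Thinned to 1000 UMIs, 13.1% of Gfap-high cells (8 of 61) and 74.8% of the others (154 of 206) held 5 or more of the 8 genes.

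Related genes were counted by lists. Of 19 amino acid transporters, 10 were tested in the class comparisons, and Slc7a11 (cystine and glutamate exchange), Slc38a3 (glutamine export), Slc1a4 (serine and alanine) and Slc3a2 (a partner chain of several exchangers) were higher in astrocyte-like cells in all 3 comparisons. Slc38a2 was lower in all 3 and Slc38a1 lower against ependymal-like and neuroblast-like cells. Both are neutral amino acid transporters. Of the classes compared, only the astrocyte-like one had a mean of Slc7a11 above the filter of 98.43 CPM, so its calls could hardly go the other way. Slc38a3 and Slc1a4 had means under that filter in transit-amplifying-like and neuroblast-like cells. Against ependymal-like cells Slc7a11 was at 248 ± 55.7 against 3.97 ± 6.87 CPM (mean ± SD, n = 3 libraries each). Slc38a1 ran the other way, at 81.9 ± 63.9 against 715 ± 61.2 CPM (-3.49 ± 0.29, log2). In the Gfap-high cells Slc7a11, Slc38a3, Slc3a2 and Slc1a4 (2 UMIs against 75) were called lower. Slc38a1 (25 UMIs against 5 in the others, 3.93 ± 0.64) and the taurine transporter Slc6a6 (15 UMIs against 2) were called higher there. Slc1a4 had a mean far under the filter in the Gfap-high cells (26.0 CPM). So had Slc38a1 and Slc6a6 in the others (3.90 and 1.56 CPM), which limits these calls. The median log2 difference of the tested transporters was 1.49, 1.08, 1.12 and -0.96 against ependymal-like, transit-amplifying-like, neuroblast-like and other astrocyte-like cells.

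Of 20 enzymes of glutamate, GABA and serine metabolism, 7 were tested against ependymal-like cells. Phgdh, which opens serine synthesis, was 3.13 ± 0.31 higher (log2) in astrocyte-like cells and Glud1, glutamate dehydrogenase, 1.93 ± 0.30 higher, and Psph, which ends serine synthesis, was lower (-0.65 ± 0.27). Against transit-amplifying-like and neuroblast-like cells 5 of 7 were higher (Phgdh, Glud1, Psph, Psat1 and the GABA transaminase Abat) and the glutamate decarboxylases Gad1 and Gad2, which make GABA, were lower. Gad2 was at 22.6 ± 21.1 CPM in astrocyte-like cells against 405 ± 42.8 CPM in neuroblast-like cells (n = 3 and 2 libraries). None of the 8 enzymes tested was called between the Gfap-high and the other astrocyte-like cells, where 138 of 2799 genes were called by edgeR and 72 by DESeq2, and 472 had an unadjusted p under 0.05 in edgeR.

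Among 28 other glutamate receptor genes, 10 were tested. Grm3, a metabotropic receptor, was at 216 ± 55.9 CPM in astrocyte-like cells, with 0 UMIs in ependymal-like, 1 in transit-amplifying-like and 1 in neuroblast-like cells. Grin2c, an NMDA receptor subunit, was at 121 ± 57.7 CPM, with 1, 4 and 0 UMIs in these classes. Both were called higher in all 3 comparisons, and Grin2b only against ependymal-like cells (53 against 1 UMIs). Of the classes compared, only the astrocyte-like one had means of Grm3 and Grin2c above the filter of 98.43 CPM. Their calls could therefore hardly go the other way and are a description. The AMPA receptor partner Cacng4 was lower than in transit-amplifying-like (4 against 36 UMIs) and neuroblast-like cells (4 against 55), and Gria4 lower than in neuroblast-like cells (0 against 8 UMIs). Grm3 (5 against 123 UMIs) and Grin2c (1 against 84 UMIs) were also lower in the Gfap-high cells. Their means there (22.7 and 4.54 CPM) were under the filter, and those in the other astrocyte-like cells (268 and 154 CPM) above it. These calls, too, could hardly go the other way.

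Of 14 GABA receptor genes, 4 were tested (Gabra2, Gabrb1, Gabbr1 and Gabbr2) and called higher in astrocyte-like cells in all 3 comparisons. Gabra2, Gabrb1 and Gabbr2 had means under the filter of 98.43 CPM in ependymal-like, transit-amplifying-like and neuroblast-like cells, so their count was largely set by the filter. The mean of Gabbr2 was under it in astrocyte-like cells too, with a wide spread (67.7 ± 77.2 CPM, 26 UMIs). Gabrb1 was at 338 ± 53.4 CPM against 44.1 ± 3.68 CPM in ependymal-like cells (2.98 ± 0.36, log2) and 5.86 ± 8.29 CPM in transit-amplifying-like cells, and was lower in the Gfap-high cells (-1.25 ± 0.36), the only call among 5 tested there. Of 15 gap junction genes and partners, 6 were tested. Hepacam, an adhesion protein that binds connexins and Mlc1 at astrocyte contacts, was higher in all 3 comparisons, by 0.65 ± 0.27, 3.83 ± 0.32 and 4.69 ± 0.42. Mlc1 and the scaffold gene Tjp1 were higher against transit-amplifying-like and neuroblast-like cells, with Mlc1 at 412 ± 33.9 CPM in astrocyte-like against 15.9 ± 1.00 and 9.65 ± 0.66 CPM in these classes.

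The sort gates, which are the design of the study, were compared over all kept cells, 1 library against 2. Here 41.8% of 10944 genes were called, 22.9% higher and 19% lower in the tdTomato-positive library, so 4 of 8 members called is close to that background. Gria2 was at 68.0 CPM in tdTomato-positive cells and 379 and 340.5 CPM in the tdTomato-negative ones, a difference of -2.34 ± 0.38 (adjusted p = 8.50e-09). Gja1 was at 494 against 253 and 288 CPM, higher by 0.91 ± 0.31 (adjusted p = 0.00962). Gjb6, at 29.2 against 56.1 and 70.6 CPM (-1.11 ± 0.40, adjusted p = 0.0169), and Slc1a2, at 403 against 656 and 768 CPM (-0.78 ± 0.33, adjusted p = 0.0448), were lower. Slc7a10 (51.4 against 69.1 and 105 CPM), Slc6a11 (30.5 against 32.4 and 46.3), Glul (508 against 543 and 748) and Slc1a3 (436 against 358 and 524) were not called, and their log2 differences were -0.76, -0.39, -0.31 and 0.01. The tdTomato-positive level of Slc1a3 lay within the range of the tdTomato-negative ones, and those of the other members lay outside it. How many of all genes tested lay outside in this way was not counted. With 1 library against 2 such a position says little. The test rests on 1 residual degree of freedom and a spread pooled over genes, and DESeq2 called 2 of the members, Gria2 and Gja1.

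A sum over all cells cannot tell fewer cells of a type from less RNA per cell. The gates differed in make-up: astrocyte-like cells were 6.35% of the tdTomato-positive library and 17.2% and 19.4% of the tdTomato-negative ones. The 15 ependymal markers, all detected in each library, summed to 15222 against 1134 and 1186 CPM, and endothelial (2159 against 83.1 and 76.1 CPM) and microglial (1706 against 15.1 and 17.3 CPM) markers were higher too, with Cldn5, Flt1 and Cx3cr1 at 0 in the tdTomato-negative libraries. Lower in the tdTomato-positive library were the markers of neuroblasts (1061 against 9942 and 8516 CPM, 12 against 15 and 15 of 15 detected, Dlx5 and Sp8 at 0), transit-amplifying cells (159.6 against 4547 and 4032 CPM, 10 against 14 and 14 of 14, Top2a and Ube2c at 0), oligodendrocyte precursors (94.4 against 758 and 608 CPM, 10 against 11 and 11 of 11, Pdgfra at 0) and neurons (483 against 1508 and 1569.8 CPM, 12 against 10 and 12 of 12). No neuroblast-like, transit-amplifying-like or oligodendrocyte precursor-like cell was kept from that library. The part of these markers in the differences of Gria2, Gad2, Slc32a1, Grin2b and the other genes was not tested. Of the related genes, 6 of 13 transporters were higher and 3 lower (Slc32a1, the vesicular GABA transporter, gave 0 against 210 UMIs, and Slc17a7, a vesicular glutamate transporter, 21 against 0), 5 of 18 enzymes were higher and 3 lower (Gad2 gave 1 against 812 UMIs, and Maob, which degrades monoamines, was 2.61 ± 0.40 higher), and 7 of 15 glutamate receptor genes were lower and none higher (Grin2b 5 against 445 UMIs). Of 8 GABA receptor genes 3 were lower, and of 8 gap junction genes and partners 4 were higher (Mlc1 by 2.10 ± 0.30) and Panx1 lower.

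Within ependymal-like cells, where the gates can be compared in 1 class, 4 of the 8 genes passed the filter on low counts and none was called by edgeR or by DESeq2. All 4 had an unadjusted p above 0.05 in edgeR, and 12 of 4098 genes (0.293%; 0.171% higher, 0.122% lower) were called, beside 133 at an unadjusted p under 0.05. Gja1 was at 491 CPM in tdTomato-positive cells and 534 and 420.0 CPM in the tdTomato-negative ones, a difference of 0.20 with a 95% interval of -0.41 to 0.82. For Slc1a3 (318 against 289 and 224 CPM) the interval was -0.18 to 1.14, for Slc1a2 (195 against 200.2 and 144 CPM) -0.35 to 1.13 and for Glul (180.2 against 178 and 155 CPM) -0.49 to 0.98. The 12 ependymal-like cells of tdTomato-negative library 1 limit this comparison. The other 4 genes gave 3 or 4 UMIs each, over the 177 tdTomato-positive ependymal-like cells.

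**Figure D5:**
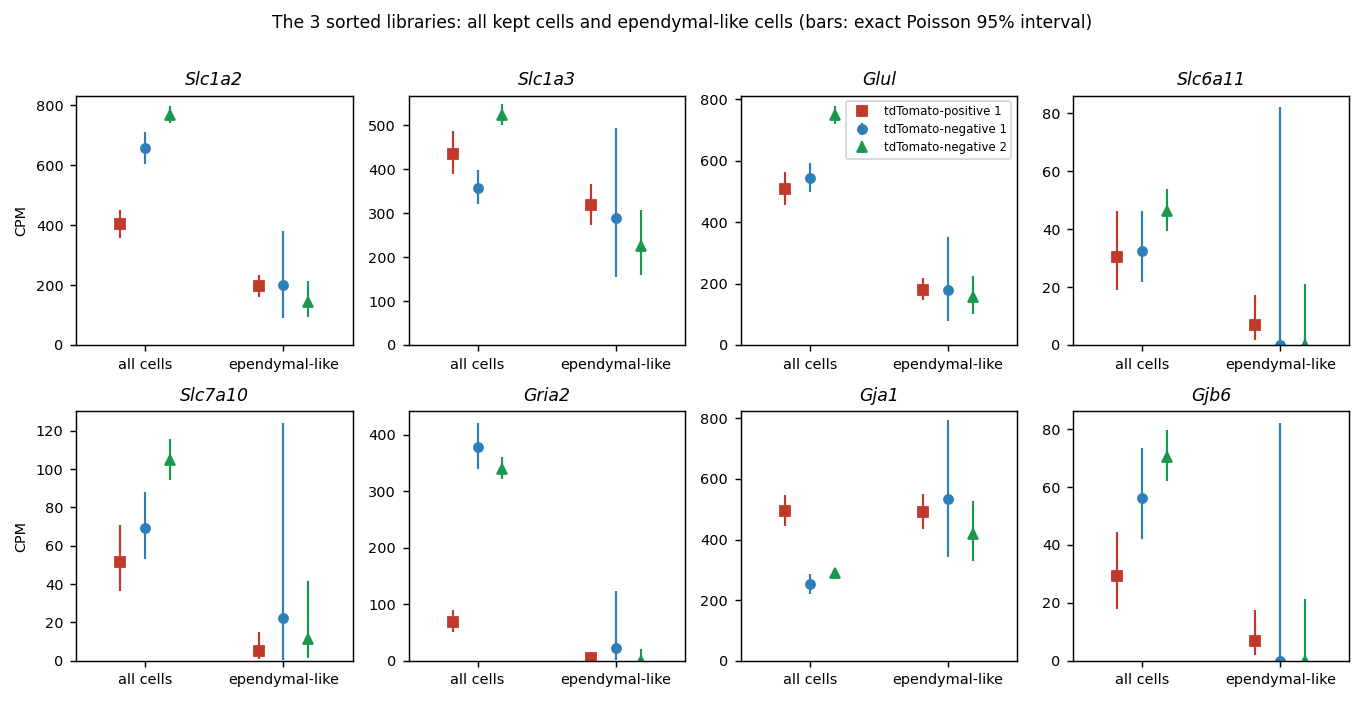
Level of each gene (CPM, linear axis from 0) in the 3 sorted libraries, over all kept cells and over ependymal-like cells, with exact Poisson 95% intervals that cover counting error only. Over all cells the tdTomato-positive library is highest for Gja1 (494 CPM) and lowest for Gria2 (68.0 CPM), and over ependymal-like cells its Gja1 level lies between those of the other libraries.

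The tdTomato-positive library also held 14 astrocyte-like cells outside the Gfap-high cluster, which can be set beside their tdTomato-negative counterparts without a test. Gria2 was at 1603 CPM (exact Poisson 95% interval 1155 to 2167) in these cells, against 870.5 CPM (669 to 1114) and 802 CPM (720 to 892). Slc7a10 was at 1298 CPM (899 to 1814) against 759.95 and 765 CPM, and Slc6a11 at 573 CPM (320 to 944) against 304 and 306 CPM. Slc1a3 was nearly level, at 2901 against 2874 and 2884 CPM, and Glul was lowest in the tdTomato-positive cells, at 2977 against 3523 and 3733 CPM. Ependymal markers were higher in these 14 cells (1260 CPM, 9 of 15 detected, with Pifo, Ak7 and Enkur at 0) than in the others (442 and 285 CPM, 13 and 15 of 15 detected), and neuroblast markers lower (76.3 against 732 and 800 CPM); their part in the result was not tested. Markers of oligodendrocyte precursors were higher too, at 649 CPM (3 of 11 detected) against 235 and 248 CPM (6 and 8 detected). So were those of oligodendrocytes, at 763 CPM (4 of 13 detected) against 249 and 325 CPM (6 and 11 detected). The part of either list in the result was not tested.

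Some members overlap other annotated genes in GENCODE M21. Slc1a2 overlaps Gm13872 on the opposite strand, Glul overlaps Teddm2, Slc6a11 overlaps Gm8132 and Slc7a10 overlaps Lrp3 in the same way, and Slc1a3, Glul and Gria2 overlap Gm37310, Mir8114 and Gm25749 on their own strand. Whether the counting used strand is not given in the sources used here, so reads of these pairs could be shared.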

How the data were processed

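Each library's deposited matrix gives whole-number UMI counts by gene and barcode, left unnormalised by the authors; depth and class sizes stand in the report. The submitters' processing notes name STAR, Cell Ranger and Seurat (1.4.0.15) and, as builds, GRCm38.p5 and mm10; how barcodes were called cells is not given in the sources used here. Kept barcodes had 300 or more genes and no more than 25% mitochondrial UMIs. Cells were clustered together (scanpy 1.11.5; 1000 variable genes, 20 components, 15 neighbours, Leiden resolution 1.0, counts scaled to 10000) on genes with an even last Ensembl digit plus markers, without the members and pathway lists; class tests used odd-digit genes plus these lists, without markers. A cluster was named where a single marker list had most, and at least 3, of its 10 leading genes and at least 3 markers 2-fold higher. No doublets were removed; Scrublet called 9, 2 and 3 cells.

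UMIs were summed per library and class (at least 10 cells) and tested with edgeR 4.0.16 (quasi-likelihood, TMM, filterByExpr, Benjamini-Hochberg over all genes tested) in R 4.3.3. Class fits had library as a block, since classes of a library are paired by construction (16 sums with 6 residual degrees of freedom, 18 with 7 for the Gfap split); gate fits had 3 sums. SE was taken as the size of the log2 difference over the root of its F statistic. In each edgeR fit the spread in F was pooled over the genes tested, whatever the residual degrees of freedom. Ratios with 1 to 3 UMIs on 1 side carry exact conditional intervals. Intervals (exact Poisson) and floors (3 counts) cover counting error only. The fits were also run on simulated counts, drawn from a common profile with known changes and without library effects. That setting is simpler than the real sums, so it does not measure the error of the fits on them. Alternatives were RLE scaling, DESeq2 1.42.0, no count filter, each library left out, a stricter cell filter (500 genes, 10%), Scrublet calls removed, odd-digit clustering, resolution 2.0, no block, and thinning to 1000 UMIs. Named were all members and, per list and comparison, up to 4 called genes with the largest change, with further called genes given by name or count; likeness used genes of at least 20 CPM on average. The members and lists were chosen with earlier results of these data known. The listed gene Pc appears as Pcx in the files. A listed transporter is not reported here.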

Additional observations from a re-analysis of the deposited data

Results flagged for a closer look

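Barcodes outside the comparisons held some members above the level of the kept cells of their library. In the 62 barcodes removed from the tdTomato-positive library (median mitochondrial share 30.4%), Gja1 was at 985 CPM (67 UMIs, exact Poisson 95% interval 764 to 1251), against 494 CPM in the kept cells. The 6 barcodes removed from tdTomato-negative library 2 held Slc1a2 at 2592 CPM (20 UMIs) against 768 CPM in kept cells, and Gja1 at 1166 CPM (9 UMIs) against 288 CPM. Gria2 gave no UMI in either set, which allows up to 54.2 CPM in the 62 barcodes and 478 CPM in the 6 (exact Poisson 95% limits). The 6 barcodes thus held too few counts to show that it was absent.

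The clusters left without a name also carried members above the level of neuroblast-like cells. Gria2 was at 630.3 and 481.9 CPM in cluster 3 and at 569.6 and 626.1 CPM in cluster 4 of tdTomato-negative libraries 1 and 2, against at most 292 CPM in neuroblast-like cells. Neuron markers summed to 4401 and 4349 CPM in cluster 3 (8 and 10 of 12 detected) and 4511 and 7258 CPM in cluster 4 (10 and 11 of 12), against 1437 and 2434 CPM in neuroblast-like cells (4 and 11 of 12), and their part in the Gria2 level was not tested. Slc1a2 was at 466.7 and 465.3 CPM in cluster 9 of the same libraries, against at most 114 CPM in neuroblast-like cells; astrocyte markers summed there to 1159 and 1510 CPM, against 405 and 424 CPM in neuroblast-like cells, and their part in the Slc1a2 level was not tested.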

How the results depend on the processing

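Against ependymal-like and transit-amplifying-like cells all 8 genes stayed called and higher under each alternative run, no replicate block included; against neuroblast-like cells 7 to 8 were called with a library left out (Gria2 lost its call, adjusted p 0.0522, without tdTomato-negative library 1). RLE scaling moved the median of all genes from 0.05 to 0.22 against transit-amplifying-like and from 0.04 to 0.20 against neuroblast-like cells, and DESeq2 to 0.27 and 0.26. Leaving out a library gave 367 to 979, 486 to 1625 and 350 to 1399 called genes against ependymal-like, transit-amplifying-like and neuroblast-like cells, with fewer genes tested (1359) without tdTomato-negative library 2.

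In the Gfap split 3 to 7 members and 14 to 168 genes were called with a library left out; DESeq2 called 5 members and 72 genes, no count filter 6 and 85, and no replicate block 6 and 98. All log2 changes of members stayed below 0 there. The block changed no other call of a member.

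Over all cells of the gates, DESeq2 called 2 members and 1908 genes, and no count filter 2 members. Slc1a3 turned to -0.11 with no count filter and -0.28 without tdTomato-negative library 1 (0.43 without library 2). Glul ranged from -0.57 to 0.051 and Slc6a11 from -0.61 to 0.062 with library 1 or 2 left out, turning positive without library 2. Slc1a2 lost its call with DESeq2 (adjusted p 0.127), no count filter (0.138) and Scrublet calls removed (0.0596). In ependymal-like cells DESeq2 and resolution 2.0 called 0 genes each, with 9 and 117 at an unadjusted p under 0.05. The causes were not tested. No paired analysis was possible for the gates because the groups share fewer than 2 replicate numbers, and leaving out a tdTomato-negative library left no residual degrees of freedom, so those are values without a test; without the tdTomato-positive library there is no comparison. Thinning lowered the share of astrocyte-like cells with a UMI for all 8 genes, by depth alone. Depth limits Slc6a11, Slc7a10, Gria2 and Gjb6 in small classes, where 3 counts amount to 115 CPM in the microglia-like cells.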
